A study of Mus musculus with 4 samples.

Results

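Glucose entry, glycolysis, lactate formation and glycogen turnover were followed through 41 listed mouse genes, of which 39 were matched by symbol in the deposited count table of 13825 genes. The transcripts came from tibialis anterior (TA) muscle, a mostly fast-twitch muscle of the lower leg, and all 39 genes averaged 10 counts or more per library, as did 13084 genes in all. Pgam2 and Ppp1r3a were not analysed here. Of the genes present, 5 belong to glucose entry, 17 to glycolysis, 2 to lactate formation and 15 to glycogen.

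The study compared adult male wild-type (WT) mice with mice lacking Fgf21 in the whole body (Fgf21KO). In each genotype a piece of the left sciatic nerve was taken out and the right leg, left intact by the sample labels and sham operated by the study's methods, was the control. RNA was taken on day 14, and 4 muscles were pooled into 1 library per group, named WS (WT sham), WD (WT denervated), KS (Fgf21KO sham) and KD (Fgf21KO denervated). No difference between single libraries therefore has a replicate check, and the spread between mice is not known. No check of genotype through Fgf21 counts was made, since Fgf21 was not analysed here.

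Skeletal muscle takes up glucose through the transporters GLUT4 and GLUT1, traps it as glucose 6-phosphate with hexokinase, and either breaks it down to pyruvate by glycolysis or stores it as glycogen. Lactate dehydrogenase interconverts pyruvate and lactate. Fast-twitch fibres hold much glycogen and glycolytic enzyme, and glycogen phosphorylase, switched on by phosphorylase kinase when calcium rises during contraction, releases glucose 1-phosphate from that store. Many of these enzymes have a muscle isoform and others used in liver, brain or blood cells, so the isoforms are described together below.

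Total counts over the genes analysed were 25249879 (WS), 29150147 (WD), 34141303 (KS) and 27740920 (KD). Levels are given as CPM (counts scaled to a common library size) after TMM scaling, which sets the libraries so that most genes do not differ. The 39 genes together stood at 71042 (WS), 37282 (WD), 73061 (KS) and 35112 (KD) CPM. Of the counts from nuclear genes, leaving out the mitochondrially encoded ones, they took 8.97% (WS), 5.18% (WD), 9.14% (KS) and 4.93% (KD). Both sham libraries were close to each other, and both denervated libraries were lower. Comparisons between genes use CPM per kilobase of annotated exon, since longer transcripts give more reads.

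The question of WD vs WS and of KD vs KS was how muscle that had lost its nerve differed from innervated muscle of the same genotype. In WD vs WS, 10 of the 39 genes were at least 2-fold lower and 2 at least 2-fold higher, where 7.52% and 7.25% of all tested genes were. In KD vs KS, 11 were at least 2-fold lower and 1 at least 2-fold higher, against 6.07% and 7.52% of all tested genes. The median log2 ratio of the 39 was -0.55 for WT and -0.63 for Fgf21KO muscle, beside 0.01 for all tested genes in both. The genes at least 2-fold lower in both genotypes were Slc2a4, Pfkm, Pfkfb1, Pfkfb3, Tpi1, Eno3, Ldha, Pygm, Phka1 and Phkg1, 10 of 39, where 518 of all 13084 tested genes were that low in both. With total counts only, Slc2a4 and Pfkm were lower by less than 2-fold in both genotypes. Phka1 (log2 ratio -0.92) and Phkg1 (-0.93) were so in WT muscle. Only Aldoc, at 4 to 31 counts, was at least 2-fold higher in both, 1 of 39, where 673 of all 13084 were.

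A model of genotype plus surgery over the 4 libraries tested the effect of denervation with both genotypes as replicates (edgeR's quasi-likelihood test, Benjamini-Hochberg adjustment over all 13084 genes, adjusted p below 0.05). By this test 24 of the 39 genes fell, 8 rose and 7 did not pass, where 26.6% of all genes fell and 26.4% rose. Only 1 residual degree of freedom remains, taken up by how far the response differs with genotype, and that difference was not tested. With total counts in place of TMM, all ratios of denervated over sham shifted up, the median of all genes to 0.29 in WT and 0.36 in Fgf21KO muscle. The split of genes that rose and fell was then 6114 and 1674 of all genes, from 3450 and 3474, and 11 and 21 of the 39. In bulk muscle, fewer cells of a type and less RNA of a gene per cell cannot be told apart.

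**Figure D1:**
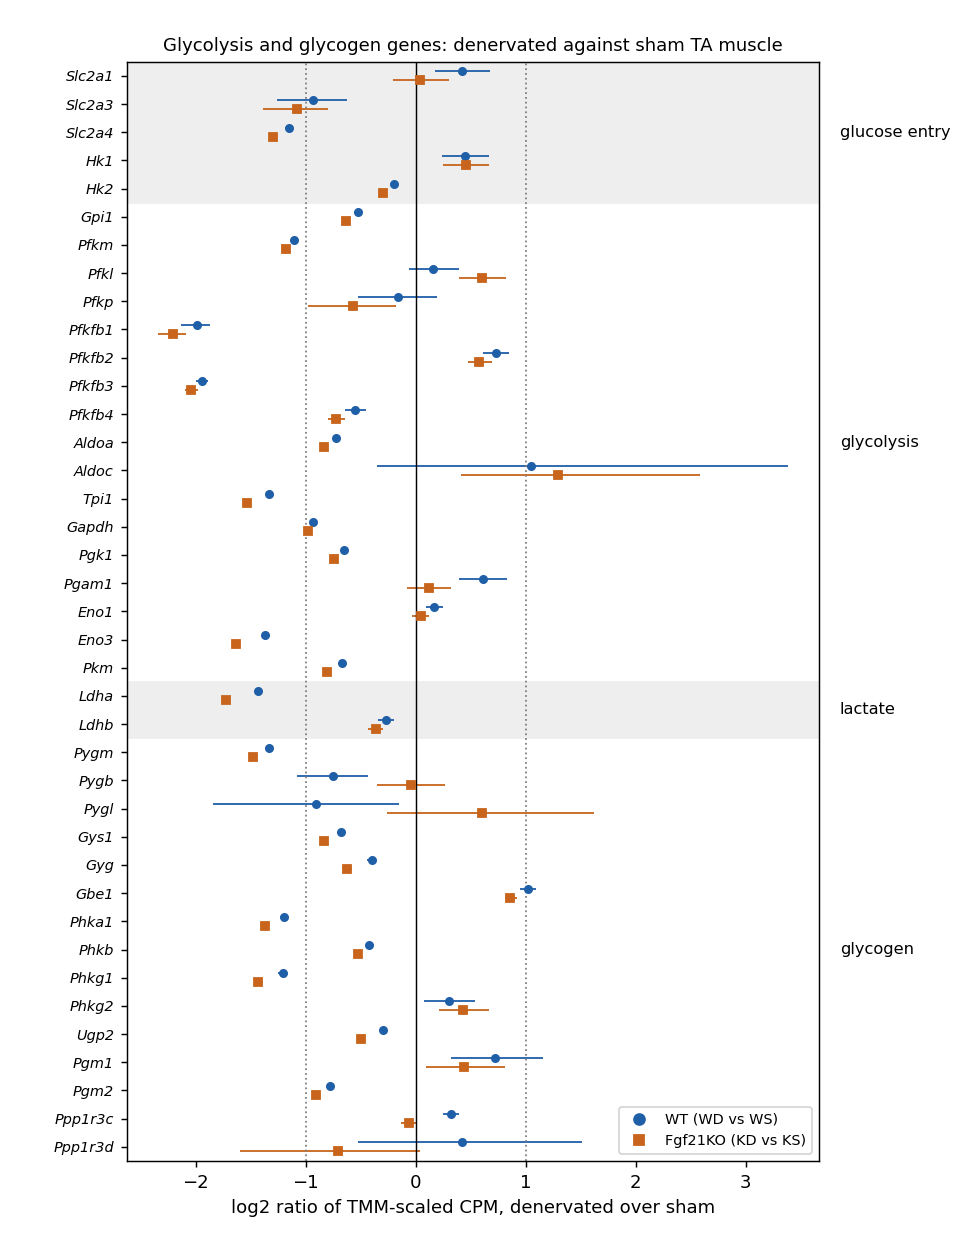
Log2 ratio of TMM-scaled CPM, denervated over sham, for each of the 39 genes grouped by step, with circles for WT (WD vs WS), squares for Fgf21KO (KD vs KS), bars for the 95% counting interval and dotted lines at a 2-fold difference. Pfkfb1 lies lowest, at -1.99 and -2.21, and Gbe1 lies to the right at 1.02 and 0.86, while with total counts only some ratios turn from negative to positive, both of Hk2 (0.08 and 0.06), those of Pfkp (0.11) and Ldhb (0.01) in WT, and those of Pygb (0.31) and Ppp1r3c (0.30) in Fgf21KO muscle.

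Among the glucose entry genes, the insulin- and contraction-responsive transporter GLUT4 (Slc2a4) was the most abundant of the transporters and was lower after denervation, while the transcript of hexokinase 2 moved less. Slc2a4 stood at 766 (WS), 345 (WD), 848 (KS) and 345 (KD) CPM. Both denervated libraries lay below both sham libraries and were at the same level as each other. Its log2 ratio was -1.15 (95% counting interval -1.19 to -1.12) in WT and -1.30 (-1.33 to -1.27) in Fgf21KO muscle, and it fell in the model (log2 change -1.23, SE 0.07, edgeR adjusted p = 2.71e-11). Per kilobase, Slc2a4 made up 98.4% (WS), 96.1% (WD), 98.5% (KS) and 97% (KD) of the summed level of the 3 transporters.

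The other transporters were scarce. Slc2a3, the neuronal and leukocyte transporter GLUT3, had 8.34 (WS), 4.35 (WD), 9.73 (KS) and 4.56 (KD) CPM. It was thus lower in both denervated libraries, with log2 ratios of -0.93 and -1.08, and fell (edgeR adjusted p = 4.11e-05). Slc2a1, the widely expressed basal transporter GLUT1, had 8.85 (WS), 11.9 (WD), 8.38 (KS) and 8.64 (KD) CPM. Its WD library stood above the other libraries, and it did not pass the test (edgeR adjusted p = 0.189), although it did with total counts only (0.00784) and with library sizes without mitochondrially encoded genes (0.0283).

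Hexokinase 2 (Hk2), the form that insulin and exercise regulate in muscle, had 654 (WS), 568 (WD), 694 (KS) and 565 (KD) CPM. It was slightly lower in the denervated libraries (log2 ratios -0.20 and -0.30, edgeR adjusted p = 0.00638), but with total counts only these ratios were 0.08 and 0.06, and the test was not passed then or with library sizes without mitochondrially encoded genes (0.203). Hexokinase 1 (Hk1), the housekeeping form bound to mitochondria, had 11.4 (WS), 15.6 (WD), 10.5 (KS) and 14.5 (KD) CPM. Its denervated libraries were higher in both genotypes, by log2 ratios of 0.45 and 0.46, and it rose in edgeR's test (adjusted p = 0.00399) but not in DESeq2's Wald test (adjusted p = 0.0844). The Hk2 level per kilobase was 82.1 (WS), 52 (WD), 94.5 (KS) and 55.8 (KD) times that of Hk1. Within a library such a ratio does not depend on how libraries were scaled. In this step 3 of 5 genes fell and 1 rose, and the median log2 ratio was -0.20 in WT and -0.30 in Fgf21KO muscle, which total counts turned to 0.08 and 0.06.

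In glycolysis 11 of 17 genes fell and 4 rose, with a median log2 ratio of -0.65 for WT and -0.74 for Fgf21KO muscle. The genes that fell form a nearly complete path from glucose 6-phosphate to pyruvate in their muscle isoforms, and those that rose were Pfkl, Pfkfb2, Aldoc and Pgam1. Of these only Pfkfb2 also rose in DESeq2's Wald test.

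Phosphofructokinase commits fructose 6-phosphate to glycolysis, and its muscle isoform Pfkm had 6461 (WS), 2996 (WD), 6105 (KS) and 2689 (KD) CPM. Denervated muscle of both genotypes was below its sham control by a little over 2-fold, with log2 ratios of -1.11 (-1.12 to -1.10) and -1.18 (-1.19 to -1.17). Pfkm fell in the model (edgeR adjusted p = 7.19e-10). The liver isoform Pfkl had 11.4 (WS), 12.8 (WD), 10.2 (KS) and 15.5 (KD) CPM, with log2 ratios of 0.16 and 0.60. The platelet isoform Pfkp had 5.33 (WS), 4.75 (WD), 4.44 (KS) and 2.98 (KD) CPM and did not pass the test (edgeR adjusted p = 0.158). Per kilobase, Pfkm held at least 99.7% of the summed level of these isoforms in every library.

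The 4 Pfkfb genes encode the enzymes that make and remove fructose 2,6-bisphosphate, an activator of phosphofructokinase. They include the genes with the lowest denervated over sham ratios of the 39 and did not all move in the same direction. Pfkfb3, whose product strongly favours synthesis of that activator, had 428 (WS), 111 (WD), 343 (KS) and 83.3 (KD) CPM. Sham libraries were high and denervated libraries low, and within each condition the Fgf21KO library was below the WT library. The log2 ratio was -1.94 in WT and -2.04 in the Fgf21KO, 3.85-fold and 4.11-fold lower, and it fell (model log2 change -1.99, SE 0.07, edgeR adjusted p = 1.07e-14).

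Pfkfb1, the isoform of liver and muscle, had 80.2 (WS), 20.1 (WD), 96.4 (KS) and 20.8 (KD) CPM. The denervated libraries were alike and far below both sham libraries. Its log2 ratios were -1.99 (-2.13 to -1.87) and -2.21 (-2.34 to -2.09), and it fell (edgeR adjusted p = 5.57e-14). Pfkfb4 had 83.5 (WS), 57.2 (WD), 102 (KS) and 62.1 (KD) CPM, lower in both denervated libraries (log2 ratios -0.55 and -0.72, edgeR adjusted p = 7.16e-07). Pfkfb2, known as the heart isoform, went the other way, with 34.6 (WS), 57.5 (WD), 39.4 (KS) and 59.1 (KD) CPM. Its log2 ratios were 0.73 (0.61 to 0.85) and 0.58 (0.48 to 0.69), and it rose (edgeR adjusted p = 1.19e-06).

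The makeup of this enzyme family thus differed between sham and denervated muscle. Per kilobase, Pfkfb3 made up 57.5% (WS), 37.4% (WD), 47.3% (KS) and 29.7% (KD) of the summed Pfkfb level. The share of Pfkfb2 was 4.85% (WS), 20.1% (WD), 5.67% (KS) and 22% (KD). That of Pfkfb4 was 17.4% (WS), 29.8% (WD), 21.9% (KS) and 34.3% (KD). Pfkfb3 led the family in both sham libraries and in WD, and Pfkfb4 led it in KD. The summed level of the family was 98.5 (WS), 39.4 (WD), 95.7 (KS) and 37.1 (KD) CPM per kilobase.

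Aldolase A (Aldoa), which splits fructose 1,6-bisphosphate, had the highest level per kilobase of the glycolysis genes, with 6900 (WS), 4189 (WD), 7342 (KS) and 4128 (KD) CPM per kilobase. The denervated libraries were lower and alike, with log2 ratios of -0.72 and -0.83 (edgeR adjusted p = 1.37e-06). The brain isoform Aldoc had 4 (WS), 14 (WD), 11 (KS) and 31 (KD) counts. It was higher in denervated than in sham muscle, by log2 ratios of 1.05 and 1.29, but its counting interval in WT muscle ran from -0.35 to 3.38. It rose in edgeR's test (adjusted p = 0.0266) and not in DESeq2's (0.329).

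Triosephosphate isomerase (Tpi1), which interconverts the products of aldolase, had 2763 (WS), 1101 (WD), 2847 (KS) and 984 (KD) CPM. Denervated libraries were the lower in both genotypes, with log2 ratios of -1.33 (-1.35 to -1.31) and -1.53 (-1.55 to -1.51), and Tpi1 fell (edgeR adjusted p = 1.31e-11). Enolase 3 (Eno3), the muscle enolase, had 7486 (WS), 2906 (WD), 7823 (KS) and 2533 (KD) CPM. Its sham libraries were close and its denervated libraries lower, with log2 ratios of -1.37 (-1.38 to -1.35) and -1.63 (-1.64 to -1.61). Eno3 fell (edgeR adjusted p = 3.78e-11). The widely expressed Eno1 had 88.7 (WS), 100 (WD), 90.2 (KS) and 93.2 (KD) CPM, and did not pass the test (edgeR adjusted p = 0.223), although it did with total counts only and with library sizes without mitochondrially encoded genes (0.00292). The ratio of Eno3 to Eno1 per kilobase was 261 (WS), 89.9 (WD), 268 (KS) and 84.1 (KD).

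Smaller falls were seen in the remaining muscle glycolysis genes. Gapdh, often taken as a reference gene in expression assays, had 5953 (WS), 3114 (WD), 6103 (KS) and 3099.6 (KD) CPM. It was lower in both denervated libraries by nearly 2-fold (log2 ratios -0.93 and -0.98, edgeR adjusted p = 9.54e-09). Pyruvate kinase (Pkm) had log2 ratios of -0.67 and -0.81, phosphoglycerate kinase (Pgk1) of -0.65 and -0.74, and glucose 6-phosphate isomerase (Gpi1) of -0.52 and -0.63, and each fell. Phosphoglycerate mutase 1 (Pgam1) had 10.8 (WS), 16.5 (WD), 13.6 (KS) and 14.8 (KD) CPM. Its WT libraries differed more than its Fgf21KO libraries, with log2 ratios of 0.61 and 0.12, and it rose in edgeR's test (adjusted p = 0.0292) but not in DESeq2's (0.214). Pgk1, Pgam1, Eno1, Tpi1 and Ldha each have a near-identical copy listed separately (Pgk1-rs7, Pgam1-ps2, Eno1b, Tpi-rs10 and Ldha-ps2), so reads may be split between them and these values are uncertain to that extent. Pgam1-ps2 had 3.35 (WS), 5.49 (WD), 4.61 (KS) and 5.98 (KD) CPM, the same order of magnitude as Pgam1.

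Lactate dehydrogenase is built of A and B subunits, the first abundant in fast-twitch muscle and the second in heart. Ldha had 3384 (WS), 1251 (WD), 3492 (KS) and 1057 (KD) CPM. The sham libraries were high and alike, and KD was the lowest. Its log2 ratio was -1.43 (-1.45 to -1.42) in WT and -1.72 (-1.74 to -1.71) in Fgf21KO muscle, and Ldha fell (model log2 change -1.58, SE 0.09, edgeR adjusted p = 6.68e-12). Ldhb had 132 (WS), 109.8 (WD), 139.6 (KS) and 109 (KD) CPM. Its denervated libraries were slightly lower, with log2 ratios of -0.27 and -0.36 and an edgeR adjusted p of 0.000951, but with total counts only the WT ratio was 0.01 and the model change 0.00 (adjusted p = 0.973).

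The Ldha level per kilobase was thus 12.1 (WS), 5.4 (WD), 11.9 (KS) and 4.61 (KD) times that of Ldhb. The share of Ldhb in the pair was 7.62% (WS), 15.6% (WD), 7.77% (KS) and 17.8% (KD). Both sham libraries held nearly the same mixture, and in both denervated libraries the B subunit made up more of the pair, its own level being lower there under TMM and that of Ldha lower still. The median log2 ratio of the lactate genes was -0.85 in WT and -1.04 in Fgf21KO muscle.

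**Figure D2:**
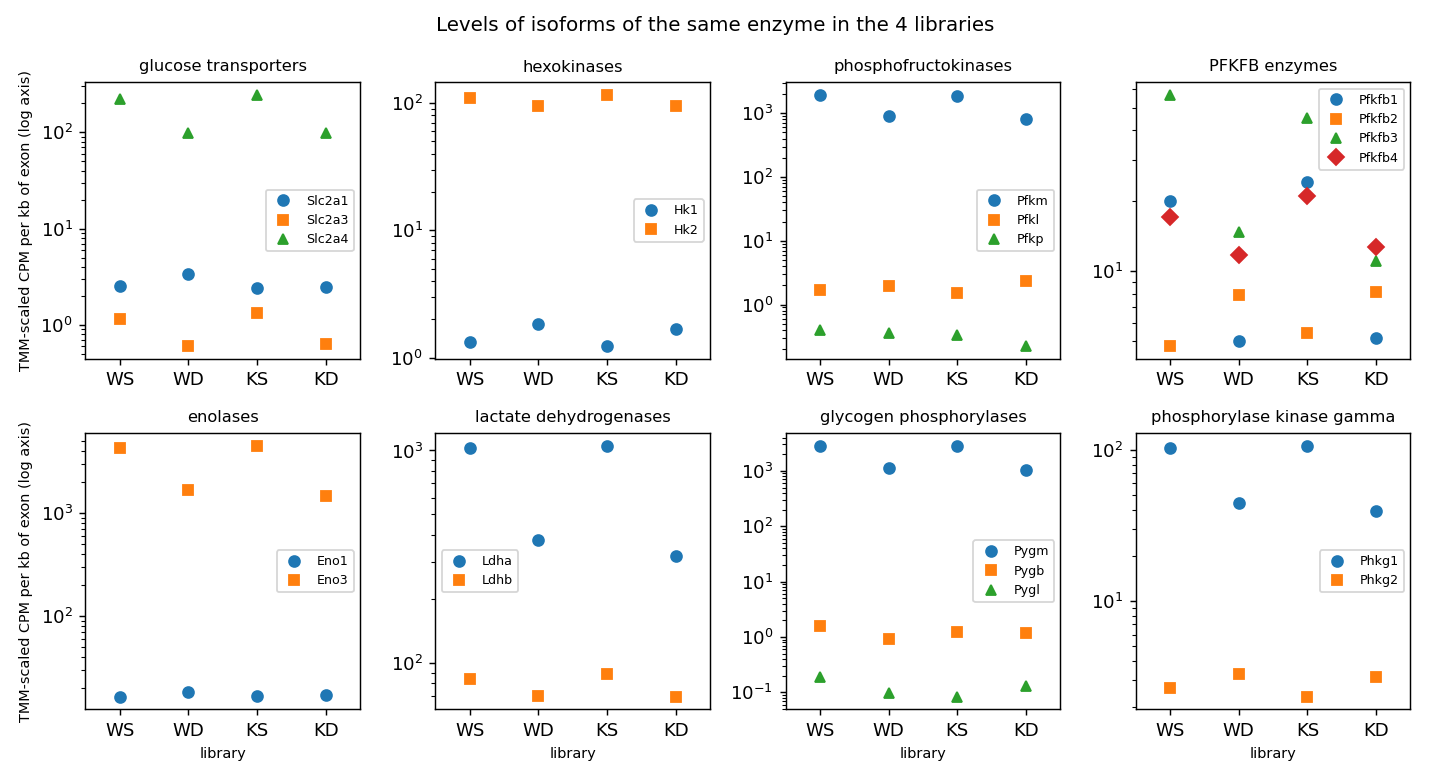
Level in TMM-scaled CPM per kilobase of exon (log axis) of the isoforms of 8 enzymes or transporters, 1 point per library and gene, with no error bars since each group is 1 library. Ldha stands at 1022 in WS and 378 in WD against 84.3 and 70 for Ldhb, and Pfkfb2 is the Pfkfb gene that is higher in WD (7.92) and KD (8.15) than in WS (4.77) and KS (5.43), a direction that was kept with total counts only.

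In the glycogen step 8 of 15 genes fell, 3 rose and 4 did not pass, with a median log2 ratio of -0.42 for WT and -0.52 for Fgf21KO muscle. Of the phosphorylases, which break glycogen down, only the muscle form passed the test. The muscle phosphorylase Pygm had 9238 (WS), 3682 (WD), 9204 (KS) and 3308 (KD) CPM, the highest level per kilobase of the step. The sham libraries were alike and the denervated libraries lower, with log2 ratios of -1.33 (-1.34 to -1.32) and -1.48 (-1.49 to -1.47). Pygm fell (edgeR adjusted p = 7.65e-11). The brain form Pygb had 7.56 (WS), 4.48 (WD), 5.82 (KS) and 5.66 (KD) CPM, with log2 ratios of -0.75 (-1.08 to -0.43) in WT and -0.04 (-0.35 to 0.27, but 0.31 with total counts only) in Fgf21KO muscle, and did not pass (edgeR adjusted p = 0.102). The liver form Pygl had 31 (WS), 22 (WD), 17 (KS) and 28 (KD) counts and did not pass either (edgeR adjusted p = 0.728).

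Phosphorylase kinase has 4 kinds of subunit, of which calmodulin is the calcium sensor. The muscle alpha subunit Phka1 had 1145 (WS), 499 (WD), 1143 (KS) and 443 (KD) CPM. Its sham libraries were alike and its denervated libraries lower (log2 ratios -1.20 and -1.37, edgeR adjusted p = 2.05e-11). The muscle catalytic subunit Phkg1 had 673 (WS), 291 (WD), 695 (KS) and 258 (KD) CPM. Its log2 ratios of -1.21 (-1.25 to -1.17) and -1.43 (-1.47 to -1.39) were near those of Phka1, and it fell (edgeR adjusted p = 1.3e-11). The beta subunit Phkb, shared by muscle and liver, had 606 (WS), 454 (WD), 617 (KS) and 431 (KD) CPM. It fell less, with log2 ratios of -0.42 and -0.52 (edgeR adjusted p = 1.55e-05). The liver and testis catalytic subunit Phkg2 had 10.6 (WS), 13.1 (WD), 9.29 (KS) and 12.6 (KD) CPM, and rose in edgeR's test (adjusted p = 0.0222) but not in DESeq2's (0.216). Per kilobase, Phkg2 made up 2.49% (WS), 6.8% (WD), 2.13% (KS) and 7.36% (KD) of the catalytic subunit level.

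On the side of synthesis, the branching enzyme Gbe1 stood apart. It had 107 (WS), 217 (WD), 132 (KS) and 241 (KD) CPM. Both denervated libraries were above both sham libraries, and each Fgf21KO library was above the WT library of the same condition. The log2 ratio was 1.02 (0.95 to 1.09) in WT and 0.86 (0.81 to 0.92) in Fgf21KO muscle, and Gbe1 rose (model log2 change 0.94, SE 0.07, edgeR adjusted p = 1.15e-09). Glycogen synthase 1 (Gys1), which adds the glucose units that Gbe1 branches, had 839 (WS), 523 (WD), 849 (KS) and 476 (KD) CPM. It was lower in both denervated libraries (log2 ratios -0.68 and -0.83) and fell (edgeR adjusted p = 3.74e-08). The Gbe1 level per kilobase divided by the Gys1 level was 0.114 (WS), 0.372 (WD), 0.14 (KS) and 0.452 (KD). The Pygm level was 16.4 (WS), 10.5 (WD), 16.1 (KS) and 10.3 (KD) times the Gys1 level.

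Glycogenin (Gyg), the protein primer of the glycogen particle, fell, with log2 ratios of -0.40 and -0.62. Ugp2, which makes UDP-glucose, had 947 (WS), 770.5 (WD), 1023 (KS) and 723 (KD) CPM. Its log2 ratios were -0.30 and -0.50 (edgeR adjusted p = 0.000183), and it no longer passed with total counts only (0.245). Phosphoglucomutase interconverts glucose 1-phosphate and glucose 6-phosphate. The entry named Pgm2 had 1275 (WS), 741 (WD), 1368 (KS) and 726 (KD) CPM and fell, while the entry named Pgm1 had 3.01, 5, 3.84 and 5.24 CPM in the same order and rose in edgeR's test alone. These symbols were exchanged between releases of the mouse annotation and the table holds no gene identifiers, so which locus each entry counts was not settled. Ppp1r3c, which brings protein phosphatase 1 to glycogen, had 110.2 (WS), 138 (WD), 113 (KS) and 109 (KD) CPM. WD alone was high, the log2 ratios were 0.32 (0.25 to 0.39) and -0.06 (-0.13 to 0.01, but 0.30 with total counts only), and the test was not passed (edgeR adjusted p = 0.192), although it was with total counts only and with library sizes without mitochondrially encoded genes (0.00284). Ppp1r3d, of the same family, had 14 to 36 counts and did not pass (edgeR adjusted p = 0.692).

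Of the 23 genes with a mean of at least 100 CPM, 21 fell, Gbe1 rose and Ppp1r3c did not pass, where 47.6% of all genes at that level fell and 32.4% rose. Of the 16 below it, 7 rose, 3 fell and 6 did not pass, where 24% of all genes below it fell and 25.6% rose. The difference by level was not tested, and fewer counts leave less power. DESeq2's Wald test in the same model gave 24 genes that fell and 2 that rose, Pfkfb2 and Gbe1, where 2474 of all 13084 genes fell and 2192 rose. Over all 7 settings of the test, 21 of the 39 genes fell in each and the same 2 genes rose in each.

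KS vs WS and KD vs WD asked how Fgf21KO muscle differed from WT muscle in the same condition. In KS vs WS no gene of the 39 was at least 2-fold higher and Pygl was at least 2-fold lower, at 17 against 31 counts, where 0.887% and 1.15% of all tested genes were. In KD vs WD Aldoc was at least 2-fold higher, at 31 against 14 counts, and none was at least 2-fold lower, where 0.841% and 0.718% of all tested genes were. With a mean count of at least 50 neither gene was tested and no other of the 39 was 2-fold apart. The median log2 ratio of the 39 was 0.05 for sham and -0.08 for denervated muscle, beside 0.00 and -0.01 for all genes.

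By the study's methods, the sham and denervated legs came from the same mice. The genotype test therefore counts legs of 1 pool of mice as replicates, and the spread between pools is not known. Across both conditions only Pfkfb3 passed this test, 1 of 39, where 0.573% of all genes passed. It was lower in Fgf21KO muscle in sham (log2 ratio -0.32, interval -0.36 to -0.28) and in denervated muscle (-0.42, -0.49 to -0.35). The model change was -0.37 (SE 0.07, edgeR adjusted p = 0.0128), and over the other settings the adjusted p ran from 0.000602 to 0.025. The difference was the smaller effect on this gene, since its denervation change was -1.99. At an unadjusted p below 0.05, 5 of the 39 and 998 of all genes passed for genotype. Of the 39, 11 did so with total counts only and 2 in DESeq2's Wald test. How many of all genes did so in these settings was not counted, so these numbers have no background to be read against. With total counts only, the KS vs WS median of all genes was itself -0.08. Among genes that did not pass, Gbe1 had log2 ratios of 0.30 (KS vs WS) and 0.15 (KD vs WD) (edgeR adjusted p = 0.315), and Pfkfb4 had 0.29 and 0.12 (edgeR adjusted p = 0.43). Slc2a4 was 0.15 higher in KS than in WS (0.06 with total counts only) and equal in KD and WD (log2 ratio 0.00, interval -0.04 to 0.04, and -0.00 with total counts only).

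The log2 ratio of denervated over sham was lower in Fgf21KO than in WT muscle for 33 of the 39 genes, with a median difference of -0.14, where 51.3% of all genes had a lower ratio and the median difference was -0.01. This comparison of responses between the genotypes was added after the data were seen, under every setting. The lists differed in how many of their genes had the lower ratio. The ratio was lower in Fgf21KO muscle for 11 of 19 other glycogen genes (median -0.02) and 6 of 9 other glycolysis, hexokinase and transporter genes (-0.02). It was lower for 6 of 6 genes of lactate and pyruvate transport (-0.25), 10 of 12 of pyruvate dehydrogenase (-0.09), 8 of 10 of the shuttles (-0.06), 6 of 8 of the pentose phosphate pathway (-0.18), 2 of 4 of gluconeogenesis (0.02) and 6 of 16 regulators (0.13). Of markers it was lower for 7 of 9 of macrophages (-0.16), 3 of 4 of Schwann cells (-0.13), 5 of 5 erythroid (-0.51), 1 of 2 of adipocytes (-0.02), 3 of 7 of fibro-adipogenic progenitors (0.05), 1 of 6 endothelial (0.22), 0 of 3 of slow fibres (0.14) and not for Myh1 (0.33), and it was lower for 13 of 13 mitochondrially encoded genes (-0.17). None of these differences was tested. For Ldha the difference was -0.29 (95% counting interval -0.31 to -0.26), for Eno3 -0.26 (-0.28 to -0.24) and for Tpi1 -0.21 (-0.23 to -0.18). For Gapdh it was -0.04 (-0.06 to -0.03) and for Pfkm -0.07 (-0.09 to -0.06). The counting interval lay below 0 for 28 genes and above 0 for 3, which were Pfkl (0.44), Pygb (0.71) and Pygl (1.52), where it lay below 0 for 15.7% and above 0 for 13.5% of all tested genes. Such intervals are narrower for genes with more counts, and many of the 39 have high counts. With total counts only, 31 of the 39 had the lower ratio in Fgf21KO muscle, where 38.3% of all genes did. The median was then -0.07 beside 0.07 for all genes. The intervals cover counting error and leave out differences between pools of mice.

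Around these steps, 84 genes of neighbouring pathways were counted. In the denervation test 42 of them fell, 19 rose and 23 did not pass, where 26.6% of all genes fell and 26.4% rose, the shares beside which the counts of each list below stand. Slc16a3, the lactate exporter MCT4 of fast-twitch fibres, had 446 (WS), 64.3 (WD), 436 (KS) and 48.5 (KD) CPM. Sham libraries were alike and denervated libraries far lower, with log2 ratios of -2.79 (-2.86 to -2.72) and -3.17 (-3.25 to -3.09), and Slc16a3 fell (edgeR adjusted p = 3.43e-16). In that list 5 of 6 genes fell and none rose.

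Among the 10 genes of the glycerol phosphate and aspartate shuttles, which carry electrons of cytosolic NADH into mitochondria, 7 fell and 1 rose. Gpd1, the cytosolic glycerol 3-phosphate dehydrogenase, had 914 (WS), 238 (WD), 888 (KS) and 203 (KD) CPM, with log2 ratios of -1.94 and -2.13. Its mitochondrial partner Gpd2 had 338 (WS), 118 (WD), 312 (KS) and 117 (KD) CPM, with log2 ratios of -1.51 and -1.41. Both were low in both denervated libraries and fell (edgeR adjusted p = 1.69e-14 and 1.02e-12). Of the aspartate-glutamate carriers, the scarce Slc25a13 rose, with 14 (WS), 90 (WD), 40 (KS) and 99 (KD) counts. The far more abundant Slc25a12 fell, at 715 (WS), 414 (WD), 703 (KS) and 404 (KD) CPM, with log2 ratios of -0.79 and -0.80. Per kilobase, it stood at 97.4 CPM in WS, beside 0.158 for Slc25a13. Slc25a12 was named after its values were seen.

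For pyruvate dehydrogenase with its kinases and phosphatases, 6 of 12 genes fell and 2 rose. Among the kinases that switch the complex off, Pdk2 fell, at 744 (WS), 470.3 (WD), 793 (KS) and 478 (KD) CPM, and Pdk4 rose, at 621 (WS), 1007 (WD), 605 (KS) and 888 (KD) CPM, both named after their values were seen. The scarcer Pdk3 rose, with 30 (WS), 105 (WD), 35 (KS) and 100 (KD) counts and log2 ratios of 1.28 and 1.41. In the pentose phosphate pathway, which makes NADPH and ribose from glucose 6-phosphate, 4 of 8 genes rose and 1 fell. Pgd, its second dehydrogenase, had 15.4 (WS), 56.5 (WD), 16.7 (KS) and 57.6 (KD) CPM. It was high in both denervated libraries, by log2 ratios of 1.87 (1.71 to 2.04) and 1.78 (1.64 to 1.93), and rose (edgeR adjusted p = 1.21e-12). Of 4 genes of gluconeogenesis 1 rose and none fell.

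Of 19 other glycogen genes, 10 fell and 3 rose. Stbd1, which binds glycogen and tethers it to membranes, had 53.8 (WS), 183 (WD), 53.7 (KS) and 189.5 (KD) CPM. The libraries formed a low sham pair and a high denervated pair, with log2 ratios of 1.76 (1.68 to 1.86) and 1.82 (1.74 to 1.90), and Stbd1 rose (edgeR adjusted p = 6.41e-14). Pgm2l1, the glucose 1,6-bisphosphate synthase, fell, with log2 ratios of -1.21 and -1.17. Of 9 other glycolysis, hexokinase and transporter genes, 5 fell and 2 rose. Tigar, which removes fructose 2,6-bisphosphate, had 189.5 (WS), 48.3 (WD), 197 (KS) and 49.5 (KD) CPM, and fell, with log2 ratios of -1.97 and -1.99. Bpgm, which makes 2,3-bisphosphoglycerate, fell, with log2 ratios of -1.27 and -1.33, and Galm, the galactose mutarotase, rose by 1.51 and 1.53.

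Of 16 regulators of glucose uptake and glycolytic transcription, 8 fell and 6 rose. Mef2a, a muscle transcription factor, had 185 (WS), 382 (WD), 182 (KS) and 374 (KD) CPM and rose by a log2 ratio of 1.04 in both genotypes. Myc rose by 1.31 and 1.67. Both were high in both denervated libraries.

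The 13 mitochondrially encoded protein genes all fell, with median log2 ratios of -0.72 in WT and -0.92 in Fgf21KO libraries, and mitochondrially encoded genes took 27% (WS), 19.4% (WD), 30.4% (KS) and 20.6% (KD) of all counts. Without them in the library sizes, 4790 of all genes rose and 2582 fell, and of the 39 genes 11 rose and 23 fell.

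Cell and fibre markers also differed between sham and denervated libraries. Of 9 markers of skeletal muscle fibres only the fast myosin Myh1 was analysed here, at 24263 (WS), 15667 (WD), 21597 (KS) and 17539.5 (KD) CPM, with log2 ratios of -0.63 and -0.30. Of 6 slow fibre markers 3 were analysed, with summed levels of 52.9 (WS), 241 (WD), 42.7 (KS) and 219 (KD) CPM, and Atp2a2, the most abundant, had log2 ratios of 2.14 and 2.28. The 9 macrophage markers summed to 22.2 (WS), 54.1 (WD), 25.2 (KS) and 51.6 (KD) CPM, with 7 that rose. Per kilobase, the most abundant of them in denervated muscle was Cd68, at 8.54 CPM per kilobase in WD and 8.57 in KD. The 6 endothelial markers summed to 465 (WS), 217 (WD), 377 (KS) and 207 (KD) CPM, and all 6 fell, Cdh5 being the most abundant. The 5 erythroid markers summed to 288 (WS), 208 (WD), 333 (KS) and 170.3 (KD) CPM, and all 5 fell, Hbb-bs being the most abundant. The 7 fibro-adipogenic progenitor markers summed to 665, 432, 655 and 444 CPM in the order WS, WD, KS and KD, led per kilobase by Ly6a. In the same order, 4 of 7 Schwann markers summed to 55, 24.1, 57.1 and 24.2 CPM, led per kilobase by Pmp22. Likewise 2 of 5 adipocyte markers summed to 244, 175, 242 and 178 CPM, led per kilobase by Fabp4. None of the markers analysed was at 0, no satellite cell marker of 3 was analysed here, and the part of these differences in the glycolytic and glycogen results was not tested.

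Promoters are shown for Eno3 and Ldha, the genes at least 2-fold lower with the highest level in their steps, and for Gbe1, which was higher, to set the sequences of genes that were lower beside one that was higher. The sequences are RefSeq's on build GRCm38.p6, 5′ to 3′ on the strand of the gene, each holding the 250 bases before an annotated start. Windows that overlap an annotated exon were not printed. Searched on both strands were ACGTG, the core of hypoxia response elements, CACGTG, an E-box that contains it, CAGCTG, an E-box bound by myogenic factors, and TATAAA, and capitals mark these letters. Eno3 lies at chr11:70656926-70657175 on the plus strand. The Ldha windows are at chr7:46845554-46845803 (start 1) and chr7:46846832-46847081 (start 2), both on the plus strand. Gbe1 is at chr16:70313699-70313948 on the plus strand.
Eno3: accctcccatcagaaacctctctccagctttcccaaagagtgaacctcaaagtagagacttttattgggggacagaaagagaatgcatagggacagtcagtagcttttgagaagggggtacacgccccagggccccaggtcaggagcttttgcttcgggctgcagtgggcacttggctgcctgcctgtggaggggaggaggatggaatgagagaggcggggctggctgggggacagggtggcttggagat
Ldha start 1: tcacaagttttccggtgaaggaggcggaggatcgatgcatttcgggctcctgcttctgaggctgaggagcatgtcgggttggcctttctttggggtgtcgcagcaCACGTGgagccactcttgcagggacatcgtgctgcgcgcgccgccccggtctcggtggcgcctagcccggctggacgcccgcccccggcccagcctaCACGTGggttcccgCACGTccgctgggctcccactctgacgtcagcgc
Ldha start 2: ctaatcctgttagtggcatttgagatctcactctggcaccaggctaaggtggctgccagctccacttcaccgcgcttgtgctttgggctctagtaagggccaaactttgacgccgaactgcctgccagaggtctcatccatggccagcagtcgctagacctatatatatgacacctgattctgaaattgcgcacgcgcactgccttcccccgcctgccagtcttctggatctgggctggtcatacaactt
Gbe1: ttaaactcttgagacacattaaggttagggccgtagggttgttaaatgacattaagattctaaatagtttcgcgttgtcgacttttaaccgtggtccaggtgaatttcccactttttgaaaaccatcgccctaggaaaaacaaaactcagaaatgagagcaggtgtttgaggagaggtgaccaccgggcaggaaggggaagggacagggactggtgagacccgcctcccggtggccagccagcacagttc

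The first Ldha window held CACGTG and ACGTG, and the windows of Eno3, Gbe1 and the second Ldha start held none of the letters searched. Of the 39 genes, 35 were matched to 53 such windows, among them 21 of the 24 genes that fell. ACGTG was in 20 of the 53 windows (37.7%), beside 16.6% of the 32851 promoters of the same length. By gene it was in 9 of the 21 that fell and in 16 of all 35, so it was no more frequent among genes that fell. CACGTG was in 6 windows (11.3%, beside 6.02%), CAGCTG in 9 (17%, beside 13%) and TATAAA in 1 (1.89%, beside 12.4%). By gene, CAGCTG was in 7 of the 21 that fell and in 9 of all 35. For CACGTG these counts were 3 and 6, and for TATAAA 1 and 1. None of these differences was tested. Windows of 1 gene can overlap, and a match describes letters in a window. Slc2a3 and Slc2a4 had no entry, and Pgm1 and Pgm2 were left out because of their exchanged symbols.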

How the data were processed

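RNA of TA muscle from the 4 groups, 4 muscles pooled per library, was sequenced by the authors after mRNA selection; GRCm39 and FastQC are named in the submitters' processing notes, and the aligner and counting program are not given in the sources used here. The deposited table used here gives a count per gene and library. A second deposited set of columns gives log2 values of scaled counts plus a constant, and served as an alternative. It holds the same counts, scaled by library sizes 0.999 (WS), 1.01 (WD), 1 (KS) and 1.02 (KD) times the TMM sizes. It thus differs from the main values mostly in the constant added, and is not an independent check of the scaling.

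Counts were scaled by TMM (edgeR 4.0.16, R 4.3.3; factors 0.922 (WS), 1.12 (WD), 0.87 (KS) and 1.11 (KD)) and genes averaging 10 counts or more per library were kept. Log2 ratios between libraries used a prior count of 2, with exact 95% intervals for counting error alone, and a difference of at least 2-fold was counted. The 95% intervals for the difference in response between genotypes were normal approximations from the counts, without a prior count. They are rough for genes with few counts. At 3 counts a gene stands at 0.129 (WS), 0.092 (WD), 0.101 (KS) and 0.097 (KD) CPM. For denervation and genotype, an additive model was fitted with edgeR's quasi-likelihood method over the 4 libraries (common biological coefficient of variation 0.0682) and also with the Wald test of DESeq2 1.42.0. Exon lengths came from GENCODE M21 on GRCm38. Figures were drawn with Python 3.11.15 and matplotlib 3.10.9.

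Alternatives were DESeq2 size factors, library totals alone, keeping every gene, a stricter minimum of 50 counts on average, a lower prior count and a higher one of 5, the second deposited columns with a pseudocount of 1 and, for tests, library sizes without mitochondrially encoded genes. All members of the list that were present are described. The genes named from the neighbouring lists are among those at least 2-fold apart in the same direction in both genotypes. Exceptions are Pdk2, Pdk4 and Slc25a12, which were chosen after their values were seen. Members and lists were chosen with earlier results of these data known. The denervation test was also run on simulated counts, in which few genes changed and both genotypes responded alike. That run cannot show how scaling and test behave where many genes change or the responses differ.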

Additional observations from a re-analysis of the deposited data

How the results depend on the processing

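The legs of single mice could not be paired because RNA of the mice was mixed before sequencing, 1 library to a group. The model of genotype plus surgery compares the legs within the pool of each genotype. With total counts only, 6 genes of the 39 in place of 10 were at least 2-fold lower in WD vs WS, and 2 in place of 1 at least 2-fold higher in KD vs KS. The median log2 ratio was then -0.27 for WT and -0.27 for Fgf21KO muscle, in place of -0.55 and -0.63. By step, for WT and then Fgf21KO muscle, it was 0.08 and 0.06 for glucose entry, a reversal, -0.37 and -0.39 for glycolysis, -0.57 and -0.69 for lactate, and -0.14 and -0.16 for glycogen. This alternative moves every ratio of denervated over sham upward by its construction.

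With a mean count of at least 50, 1 gene in place of 2 was at least 2-fold higher in WD vs WS and 0 in place of 1 in KD vs KS, 0 in place of 1 lower in KS vs WS and 0 in place of 1 higher in KD vs WD, since Aldoc and Pygl were not tested. With a prior count of 5, 1 gene was at least 2-fold higher for WD vs WS, while for KD vs WD there were 0. With the lower prior count, 2 genes in place of 0 were at least 2-fold higher in KS vs WS. With the second deposited columns, 0 genes were at least 2-fold higher for WD vs WS, 0 for KD vs KS, and 0 for KD vs WD, while 0 were lower for KS vs WS. The causes of these differences were not tested.

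The denervation test was passed by 32 of the 39 genes, and by 26 (DESeq2's Wald test) to 34 (library sizes without mitochondrially encoded genes) under the alternatives. The genotype test was passed by 1 gene in each. Depth limits genes such as Aldoc, Pygl and Ppp1r3d, with 4 to 36 counts per library.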
